A study of Arabidopsis thaliana with 12 samples.

Results

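Plants assimilate nitrate through a short chain of transporters and enzymes, and 10 genes of this chain in Arabidopsis leaves are described here, out of the 27827 probe sets of the array. They were chosen by locus: the nitrate transporters NRT1.1 (AT1G12110) and NRT2.1 (AT1G08090), the nitrate reductases NIA1 (AT1G77760) and NIA2 (AT1G37130), the nitrite reductase NIR1 (AT2G15620), the glutamine synthetases GLN2 (AT5G35630), GLN1;1 (AT5G37600) and GLN1;2 (AT1G66200), the ferredoxin-dependent glutamate synthase GLU1 (AT5G04140) and the asparagine synthetase ASN2 (AT5G65010). Each was measured by 1 probe set. Wild-type (WT, Col-0) and dcl1-9 leaves, taken as true leaves 5 to 7 of plants aged 4 to 5 weeks that had grown in days of 12 h of light, were cut off and floated on 20 mL of pure water. From 2 h after lights-on they were kept for 6 h at 22 °C, either in light of 100 µE (WT light, dcl1-9 light) or in darkness (WT dark, dcl1-9 dark). Each of the 4 groups held 3 biological replicates, so that 12 arrays were available. DCL1 encodes the RNase that makes most plant microRNAs. The dcl1-9 allele is a T-DNA insertion that came from the Wassilewskija ecotype and was crossed repeatedly into Col-0, and homozygotes were picked by their appearance from segregating progeny. All leaves, those in light included, were detached and had no nitrate supply in the medium. The question of the study was how the response of leaves to energy deprivation depends on DCL1.

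In leaf cells nitrate is reduced to nitrite by nitrate reductase in the cytosol, and nitrite is reduced to ammonium by nitrite reductase in the plastid with electrons from ferredoxin. Glutamine synthetase joins ammonium to glutamate, and glutamate synthase and asparagine synthetase pass the amide nitrogen on to glutamate and to asparagine. In leaves the chain is known to depend on photosynthesis for reductant and carbon skeletons, and nitrate reductase transcripts are known to respond to nitrate, light, sugars and the time of day.

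The median intensity of an array lay between 29.96 and 34.54. The RNA came from whole leaves, so that fewer cells of a type and less RNA per cell cannot be told apart. Of the 5 leaf mesophyll markers, RBCS1A had group means from 2729 to 3501 and CAB1 from 79.9 to 121. Of the 5 root markers COBL9 and RHD6 had means under 20 in each group, while those of CASP1 ran from 22.7 to 32.3 and those of EXPA7 from 23.5 to 67.7. EXPA7 was the 1 root marker that rose in dcl1-9 darkness, and none was called in WT. The DCL1 probe set read 17.1 to 21.5 in light and 21.3 to 26.6 in darkness in WT, and 36.5 to 48.3 and 51.5 to 67.4 in dcl1-9, thus higher in the mutant. Where its probes lie relative to the insertion is not known, so this does not check the labels.

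In WT leaves, 6 h of darkness lowered most of the chain. ASN2 fell the furthest, by 2.18 on the log2 scale, followed by NIA2 (1.97), GLU1 (1.44), NRT2.1 (1.25), GLN2 (1.04) and NIR1 (0.77), whereas NRT1.1, GLN1;1, GLN1;2 and NIA1 did not pass the test. A gene is called changed here when its p-value from limma was under 0.05 after Benjamini-Hochberg adjustment across the whole array. By this rule 0 of the 10 genes rose and 6 fell, where 12.8% of all probe sets rose and 14.5% fell. At an unadjusted p under 0.05 in limma there were 7 genes, all lower in darkness. The median log2 fold-change of the 10 genes was -0.91, against 0.06 for all probe sets. The WT dark arrays did not overlap the WT light arrays for 7 genes, all lower in darkness, and for 37.7% of all probe sets. Mesophyll markers moved with these genes. Of the 5 markers 3 fell in WT, and their summed intensity ran from 7687 to 9103 in WT light and from 6170 to 6918 in WT dark. Of the 5 phloem markers 2, the sugar transporters SWEET11 and SWEET12, were higher in WT dark. SUC2, AHA3 and APL were not called, and APL had a negative log2 fold-change (-0.15). The phloem sums were 1697 to 1914 in light and 2540 to 3039 in darkness, most of them SWEET11 (means 1238 and 1700). The part of the mesophyll and phloem markers in the result was not tested.

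In dcl1-9 leaves 5 of the 10 genes fell in darkness and 0 rose, where 12.9% of all probe sets fell and 10.8% rose. The same 5 had an unadjusted p under 0.05 in limma. They were ASN2 (a log2 fold-change of -1.56), NRT2.1 (-1.55), GLN2 (-0.91), GLU1 (-0.71) and NRT1.1 (-0.69). NIA2 and NIR1, which fell in WT, did not pass the test in dcl1-9, and NRT1.1 passed it in dcl1-9 but not in WT. The genes called in both genotypes numbered 4. The median of the 10 genes was -0.54 on the log2 scale, against 0.06 for all probe sets. The arrays of the light and dark groups did not overlap for 5 genes, and for 39.3% of all probe sets. Mesophyll markers summed to 7764 to 9246 in dcl1-9 light and to 7430 to 7897 in dcl1-9 dark. Of these 5 markers 1, RCA (-0.70), was called lower. RBCS1A (-0.16) and CA1 (-0.28) were negative, CAB1 (0.28) and LHCB4.1 (0.115) were positive, and none of these was called. The phloem sums were 1621 to 2278 and 2518 to 2940, most of them SWEET11 (means 1165 and 1552). Of the 5 phloem markers 2 were called higher, again SWEET11 and SWEET12. SUC2 (-0.22), APL (-0.21) and AHA3 (0.11) were not called. The part of the mesophyll and phloem markers in these values was not tested.

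**Figure D1:**
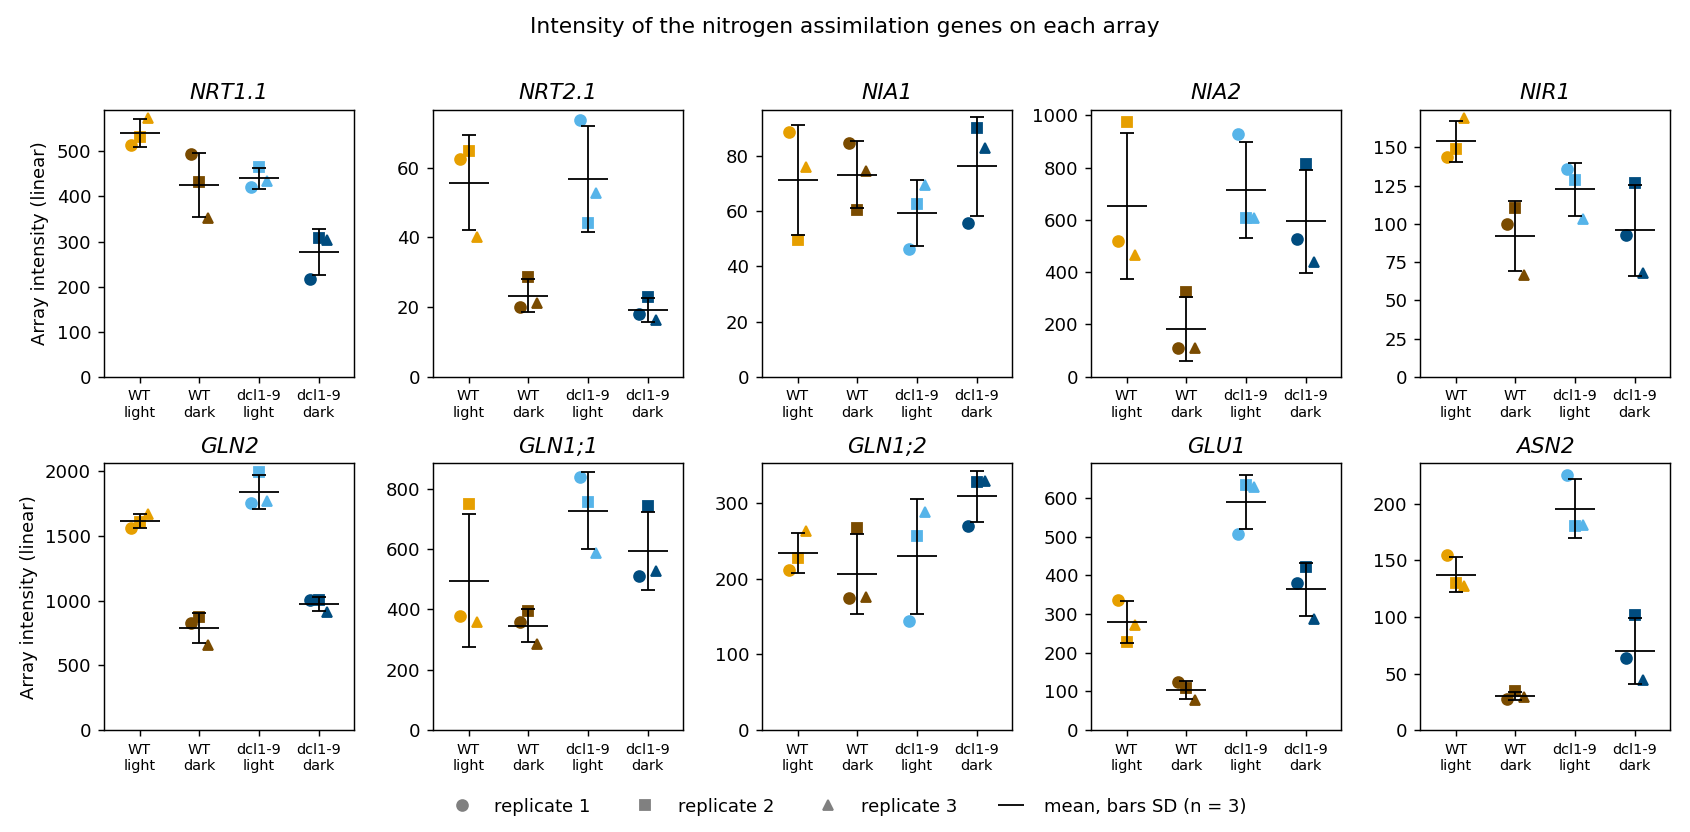
Array intensity on a linear scale (vertical axes) of the 10 genes in the 4 groups. Each symbol is 1 array (circle, square and triangle for replicates 1, 2 and 3), the horizontal line is the group mean and the bar its SD (n = 3). For ASN2, GLN2, GLU1, NRT1.1 and NRT2.1 the dark arrays lie below the light arrays of the same genotype in both genotypes. The NIA2 arrays of dcl1-9 dark, from 440.3 to 816, lie above those of WT dark, from 109.9 to 323.

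**Figure D2:**
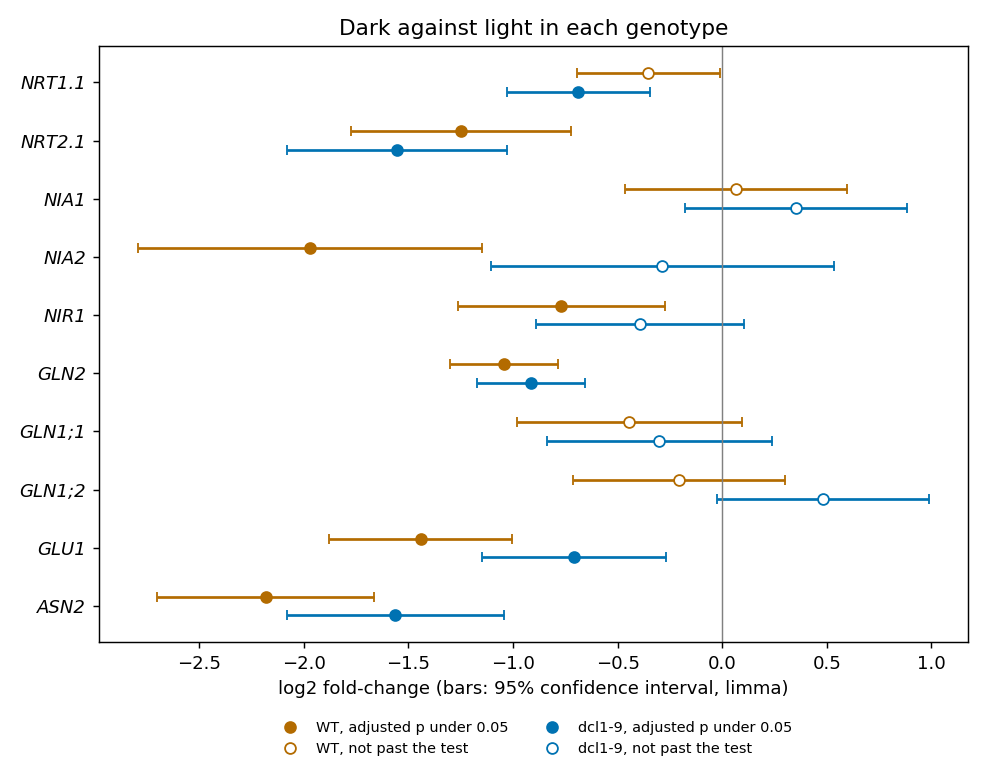
Log2 fold-change of darkness against light (horizontal axis) for each gene in WT (brown) and dcl1-9 (blue), with the 95% confidence interval from limma. Filled symbols had an adjusted p under 0.05, and NIA2 lies at -1.97 in WT and at -0.29 in dcl1-9.

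Between the genotypes most genes of the chain that passed the test were higher in dcl1-9. In light only GLU1 was called, at 2.13-fold the WT level. In darkness NIA2 was higher in dcl1-9 by 3.63-fold, GLU1 by 3.53-fold and ASN2 by 2.18-fold, and NRT1.1 was lower by 1.55-fold. Thus 1 gene was higher and 0 lower in light, where 5.92% of all probe sets were higher and 3.33% lower (9.25% in either direction), and 2 genes, both higher, had an unadjusted p under 0.05 in limma. In darkness 3 were higher and 1 lower, where 4.45% of all probe sets were higher and 3.02% lower (7.46% in either direction), and 7 of the 10 had an unadjusted p under 0.05 in limma. Whether these counts differ from each other was not tested. The groups did not overlap for 5 genes in light and for 7 in darkness, against 32.6% and 32.1% of all probe sets.

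The median probe set was itself lower in dcl1-9, with log2 differences of -0.14 (light) and -0.12 (dark), and for the 10 genes the value relative to that median stands beside each called difference below. Differences of the other gene lists are unshifted, except where a value relative to the median is named. Standard errors and p-values belong to the unshifted difference. All 5 guard cell markers had a positive log2 difference in light, but only 2, SLAC1 and MYB60, were called. Their sums were 434.1 to 631.8 in dcl1-9 light and 247.2 to 388.8 in WT light. KAT1, with the largest means (137 in WT and 244 in dcl1-9), was not called, and MYB60 had a WT light mean of 12.5. Of the 5 phloem markers 2, AHA3 and SWEET12, were called higher in dcl1-9 light, and SUC2 was not called. SWEET11 (-0.10) and APL (-0.05) were negative and not called. The phloem sums overlapped (1621 to 2278 in dcl1-9 and 1697 to 1914 in WT). In darkness no list had a called marker between genotypes, but the mesophyll sums of dcl1-9 (7430 to 7897) lay above those of WT (6170 to 6918). Their part in the genotype differences was not tested. The count of 4 genes in darkness rested on single arrays. It was 2 without WT dark replicate 1 or replicate 3, and 1 without dcl1-9 dark replicate 1 or replicate 2. In light the count of 1 became 2 without WT light replicate 2.

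**Figure D3:**
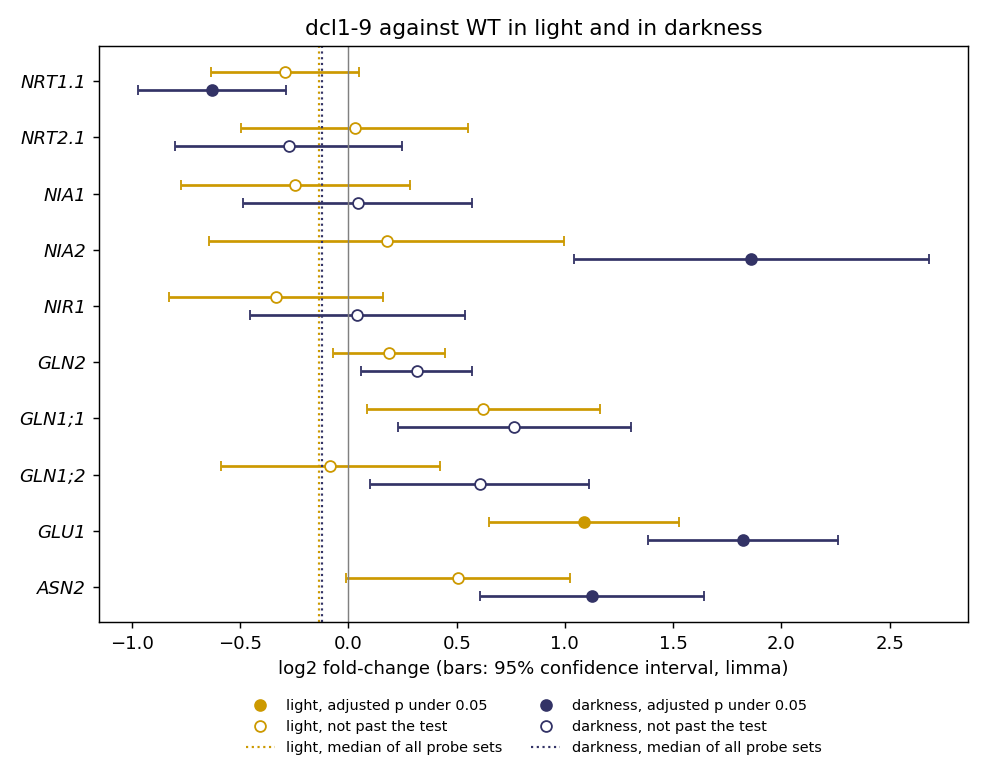
Log2 difference of dcl1-9 from WT (horizontal axis) for each gene in light (gold) and in darkness (dark blue), with the 95% confidence interval from limma. Filled symbols had an adjusted p under 0.05, and dotted lines mark the median of all probe sets (-0.14 and -0.12). GLU1 is filled in both, at 1.09 in light and 1.82 in darkness.

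The difference between the dark responses of dcl1-9 and WT was tested as an interaction in limma. None of the 10 genes passed this test (0 called), and 29 of the 27827 probe sets did (0.104%). At an unadjusted p under 0.05 there were 2 of the 10, NIA2 and GLU1, against 5.73% of all probe sets. For NIA2 the dark response of dcl1-9 was less negative than that of WT by 1.68 on the log2 scale (95% confidence interval 0.52 to 2.85, adjusted p = 0.51), and 0.0898% of probe sets had a value at least as large in that direction alone. For GLU1 the difference was 0.73 (0.11 to 1.35, adjusted p = 0.73). The intervals of the other 8 genes all spanned 0.

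Of the transporters, NRT1.1 is a dual-affinity nitrate transporter that also acts as a nitrate sensor. Its intensity was 513, 533 and 574 on the WT light arrays and 493, 433 and 352 on the WT dark arrays. On the dcl1-9 arrays it was 421, 466 and 434 in light and 217, 308 and 304 in darkness. All dark arrays lay below the light arrays of their genotype, and all dcl1-9 arrays lay below the WT arrays of the same treatment. The dark response was -0.69 in dcl1-9 (SE 0.16, adjusted p = 0.0050 from limma) and -0.35 in WT, where it was not called (adjusted p = 0.12). In darkness dcl1-9 was lower than WT by a log2 difference of -0.63 (-0.51 relative to the median, SE 0.16, adjusted p = 0.030 from limma). This call was lost without WT dark replicate 1 (adjusted p = 0.10), WT dark replicate 2 (0.065), dcl1-9 dark replicate 1 (0.15) or dcl1-9 dark replicate 2 (0.051), and in a fit without the intensity trend (0.058). In light the difference of -0.29 was not called.

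NRT2.1 is a high-affinity nitrate transporter best known from roots. It read 62.4, 64.6 and 39.96 in WT light, and 19.9, 28.6 and 21.1 in WT dark. In dcl1-9 light it read 73.7, 44.04 and 52.7, and in dcl1-9 dark 18.1, 22.8 and 16.4. Every dark array was below every light array, in whichever genotype, and the genotypes overlapped in both treatments. The fall in darkness was 2.38-fold in WT (log2 fold-change -1.25, SE 0.25, adjusted p = 0.0013 from limma) and 2.94-fold in dcl1-9 (-1.55, SE 0.25, adjusted p = 2.8e-04 from limma). The genotype differences, 0.03 in light and -0.28 in darkness, did not pass the test. The root marker sums ran from 95.6 to 118 in WT light and from 120.2 to 159 in WT dark. COBL9 and RHD6 had means under 20, and no root marker was called in WT. The part of root markers in the NRT2.1 values was not tested. NRT2.2 (AT1G08100), the neighboring gene and a close relative, had mean intensities between 9.86 and 16.1 and was called in no comparison.

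The 2 nitrate reductase genes gave different records. NIA2, which is known to provide most of the nitrate reductase activity of leaves, read 519, 975 and 467 in WT light and 111, 323 and 109.9 in WT dark. In dcl1-9 it read 927, 606 and 609 in light and 526, 816 and 440.3 in darkness. Only the WT dark arrays stood apart from the rest, all below every other array, while the dcl1-9 dark arrays lay within the range of the light arrays or just under it. WT leaves thus showed a 3.92-fold fall (log2 fold-change -1.97, SE 0.38, adjusted p = 0.0012 from limma). In dcl1-9 the log2 fold-change was -0.29 with a 95% confidence interval from -1.11 to 0.54 (adjusted p = 0.67). This range holds a fall, no change and a rise.

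The array numbered 2 had the highest NIA2 reading in WT light, WT dark and dcl1-9 dark, and the SD was large (654 ± 279.5 in light and 181 ± 123 in darkness for WT, 714 ± 185 and 594 ± 197 for dcl1-9, SD, n = 3). In darkness dcl1-9 exceeded WT by a log2 difference of 1.86 (1.98 relative to the median, SE 0.38, adjusted p = 0.011 from limma), and 0.133% of probe sets had a difference at least as large in the direction of higher in dcl1-9. The call was lost without WT dark replicate 3 (adjusted p = 0.063), dcl1-9 dark replicate 1 (0.050) or dcl1-9 dark replicate 2 (0.058). In light the difference was 0.18 and the groups overlapped.

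NIA1, the other nitrate reductase, showed no such pattern. In WT it ranged from 49.7 to 88.6 with light and from 60.4 to 84.6 without, and in dcl1-9 from 46.2 to 69.5 and from 55.9 to 90.1, so that all groups overlapped. Its log2 fold-change in darkness was 0.06 in WT (95% confidence interval -0.47 to 0.59) and 0.35 in dcl1-9 (-0.18 to 0.88).

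NIR1 encodes the plastid nitrite reductase, the next step of the chain. It read 143, 149 and 169 in WT light and 99.6, 111 and 66.5 in WT dark. In dcl1-9 it read 136, 129 and 103 in light and 92.6, 127 and 67.9 in darkness. The WT groups did not overlap, whereas 1 dcl1-9 dark array reached the level of the dcl1-9 light arrays. In WT its log2 fold-change was -0.77 (SE 0.23, limma adjusted p = 0.022). Leaving out WT light replicate 3 (-0.70, adjusted p = 0.069) or WT dark replicate 3 (-0.55, 0.11) ended this call. In dcl1-9 the log2 fold-change was -0.39 (95% confidence interval -0.89 to 0.10, adjusted p = 0.27). Between genotypes NIR1 was not called, with log2 differences of -0.33 in light and 0.04 in darkness.

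Among the glutamine synthetases, the plastid enzyme GLN2, which also recovers the ammonium released in photorespiration, had the smallest standard error and fell in both genotypes. It read 1559, 1611 and 1667 in WT light and 827, 878 and 659 in WT dark. In dcl1-9 it read 1757, 1994 and 1766 in light and 1008, 1002 and 915 in darkness. All light arrays lay above all dark arrays, and within each treatment all dcl1-9 arrays lay above all WT arrays. Darkness lowered it 2.06-fold in WT (log2 fold-change -1.04, SE 0.12, adjusted p = 1.3e-05 from limma) and 1.89-fold in dcl1-9 (-0.91, SE 0.12, adjusted p = 5.6e-05 from limma). The genotype differences of 0.19 in light and 0.32 in darkness (0.33 and 0.44 relative to the median) were not called, with adjusted p = 0.31 and adjusted p = 0.12.

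The cytosolic glutamine synthetases did not pass the test for darkness in either genotype. In WT, GLN1;1 ranged from 359 to 749 with light and from 286 to 394 without, and in dcl1-9 from 587 to 837 and from 509.9 to 742. The highest WT light value was that of replicate 2, far above the others of its group (378 and 359). Only in darkness did the genotypes not overlap, with a log2 difference of 0.77 (0.89 relative to the median, 95% confidence interval 0.23 to 1.30) that was not called (adjusted p = 0.077). In light the difference was 0.62 (adjusted p = 0.12). Without WT light replicate 2 it was called in light (0.96, adjusted p = 0.011) and in darkness (0.77, adjusted p = 0.020). In darkness it was also called with median centring (0.84, adjusted p = 0.038 from limma) and in a fit of only the groups compared (0.77, adjusted p = 0.023 from limma).

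GLN1;2 lay between 212 and 263 in WT light and between 175 and 267 in WT dark. Its range was 144 to 288 in the light group of dcl1-9 and 269.6 to 329 in the dark group. In darkness all dcl1-9 arrays were above the WT arrays, though the closest pair, 267 and 269.6, was almost level, and the log2 difference of 0.61 (0.73 relative to the median) was not called (adjusted p = 0.13). It was called without dcl1-9 light replicate 1 (adjusted p = 0.048).

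GLU1, the ferredoxin-dependent glutamate synthase that prevails in leaves, was the gene of the chain called in all 4 comparisons between groups. It read 338, 229 and 272 in WT light and 125, 109 and 77.2 in WT dark. In dcl1-9 it read 508, 633 and 627 in light and 380.4, 422 and 288 in darkness. The dcl1-9 arrays were above the WT arrays of the same treatment throughout, and the dcl1-9 dark arrays reached the WT light range or exceeded it. In WT the gene fell 2.72-fold (log2 fold-change -1.44, SE 0.20, adjusted p = 8.7e-05 from limma). In dcl1-9 it fell 1.63-fold (-0.71, SE 0.20, adjusted p = 0.020 from limma), which was lost without dcl1-9 light replicate 2 (adjusted p = 0.069), dcl1-9 light replicate 3 (0.067) or dcl1-9 dark replicate 3 (0.10). The genotype difference was 1.09 in light (1.23 relative to the median, SE 0.20, adjusted p = 0.0069 from limma) and 1.82 in darkness (1.94 relative to the median, SE 0.20, adjusted p = 2.5e-04 from limma). Both passed the test in every alternative run, with adjusted p at most 0.036 in light and 0.0027 in darkness.

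ASN2 encodes an asparagine synthetase whose transcript is known to be favored by light. It read 155, 130.2 and 127 in WT light and 27.2, 34.5 and 29.3 in WT dark. In dcl1-9 it read 226, 180.4 and 181 in light and 64.1, 102 and 43.96 in darkness. The 4 groups did not overlap at all and stood in the order WT dark, dcl1-9 dark, WT light, dcl1-9 light. Darkness lowered ASN2 4.53-fold in WT (log2 fold-change -2.18, SE 0.24, adjusted p = 9.3e-06 from limma) and 2.95-fold in dcl1-9 (-1.56, SE 0.24, adjusted p = 2.4e-04 from limma). The neighboring light groups of that order did not differ by the test (log2 difference 0.51, adjusted p = 0.19), whereas the dark groups did (1.13, 1.25 relative to the median, SE 0.24, adjusted p = 0.014 from limma). The dark call was lost without WT dark replicate 1 (adjusted p = 0.051), WT dark replicate 3 (0.057), dcl1-9 dark replicate 1 (0.063) or dcl1-9 dark replicate 2 (0.055).

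The surroundings of the chain were read from 6 lists with 93 other genes of nitrogen metabolism. In WT darkness 24 of the 93 rose and 18 fell, with a median log2 fold-change of 0.12. Of all probe sets 12.8% rose and 14.5% fell. In dcl1-9 19 rose and 18 fell, with the same median of 0.12, where 10.8% of all probe sets rose and 12.9% fell. Between genotypes 10 were higher and 5 lower in dcl1-9 in light, against 5.92% and 3.33% of all probe sets. In darkness 6 were higher and 7 lower, against 4.45% and 3.02%. The same shares apply to the counts of each list below. None of the 93 passed the test for a difference of the dark responses (0.104% of all probe sets did). At an unadjusted p under 0.05 in limma there were 10, against 5.73% of all probe sets. In light the count of 15 was 8 without WT light replicate 3 and 9 without dcl1-9 light replicate 2 or replicate 3. In darkness the count of 13 was 8 without WT dark replicate 3 and 7 without dcl1-9 dark replicate 1.

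The other enzymes of glutamine, glutamate and asparagine metabolism held the gene that moved furthest. ASN1 (AT3G47340), the asparagine synthetase known to be induced in darkness, rose from 13.5 ± 5.03 in WT light to 1881 ± 257 in WT dark (SD, n = 3), and from 22.6 ± 11.8 to 1446 ± 383 in dcl1-9. Its log2 fold-changes were 7.19 and 6.14, opposite in direction to those of ASN2. ASN3, the remaining asparagine synthetase, fell with ASN2 (-1.42 in WT and -1.74 in dcl1-9). The glutamate dehydrogenase GDH1 rose in both genotypes (2.18 and 1.86). In all, 4 of these 12 genes rose and 1 fell in WT darkness, and 5 rose and 1 fell in dcl1-9.

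Other forms of the members' enzymes also differed between the genotypes, and not all in the direction of GLU1. GLU2, the second ferredoxin-dependent glutamate synthase, was higher in dcl1-9 by a log2 difference of 1.16 in light and 1.13 in darkness (1.29 and 1.25 relative to the median). In darkness the NADH-dependent form GLT1 (0.86) and the cytosolic glutamine synthetase GLN1;3 (0.88) were higher in dcl1-9 as well. GLN1;4 was lower, by -1.06 in light and -1.23 in darkness.

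Of 19 other nitrate transporters and channels, 7 rose and 3 fell in WT darkness, and 5 rose and 4 fell in dcl1-9. CLCa, the exchanger that loads nitrate into the vacuole, rose from 29.9 ± 5.58 to 253 ± 65.2 in WT (log2 fold-change 3.06) and from 110 ± 59.2 to 433 ± 46 in dcl1-9 (2.16, SD, n = 3). NRT1.11, which is known to act in the phloem, rose by 1.91 in WT and 2.91 in dcl1-9. Between genotypes CLCb, a relative of CLCa, was lower in dcl1-9 darkness by -1.90, and NRT1.8, which takes nitrate out of the xylem, was higher in dcl1-9 light by 1.88. Of 6 ammonium transporters 2 fell in each genotype, led by AMT1;2 (-2.60 in WT and -1.21 in dcl1-9), and AMT1;2 was also lower in dcl1-9 light by -1.64. Low intensity limits these values. The dark means of AMT1;2 were 17.7 in WT and 15.04 in dcl1-9, and its dcl1-9 light arrays ran from 20.29 to 62.55.

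Among 27 regulators of the nitrate response, 11 rose and 1 fell in WT darkness, and 8 rose and 2 fell in dcl1-9. The scaffold protein gene BT2 rose by 4.16 in WT and 3.85 in dcl1-9. LBD38 (2.35 and 2.25) and LBD37 (1.91 and 1.98), known as repressors of nitrogen-responsive genes, rose as well. NLP4, of the NIN-like family of nitrate-responsive transcription factors, was higher in dcl1-9 by 1.00 in light and 1.09 in darkness, and BT1 was lower in dcl1-9 darkness by -1.51. The WT means of NLP4 were low, at 19.4 in light and 16.9 in darkness.

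Of the 19 genes that supply reductant, carbon skeletons and cofactors, 7 fell and 1 rose in WT darkness, and 6 fell and 1 rose in dcl1-9, with list medians of -0.24 and -0.22. The leaf ferredoxin-NADP reductase LFNR2 fell from 675 ± 91.6 to 122 ± 9.48 in WT (-2.46) and from 1021 ± 173 to 244 ± 15.6 in dcl1-9 (-2.05, SD, n = 3). The ferredoxin FD1 (-1.80 and -1.67) and the plastid glucose-6-phosphate dehydrogenase G6PD3 (-1.26 and -1.15) fell in both genotypes. The 2-oxoglutarate transporter DIT1 fell 3.03-fold in WT and 2.48-fold in dcl1-9. Of 10 aminotransferases 4 fell and 1 rose in WT darkness, and 3 fell in dcl1-9. The aspartate aminotransferase ASP4 was lower in the mutant under light (-2.08) and darkness (-1.14), and the photorespiratory aminotransferase GGT1 was higher in both (0.72 and 0.86).

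**Figure D4:**
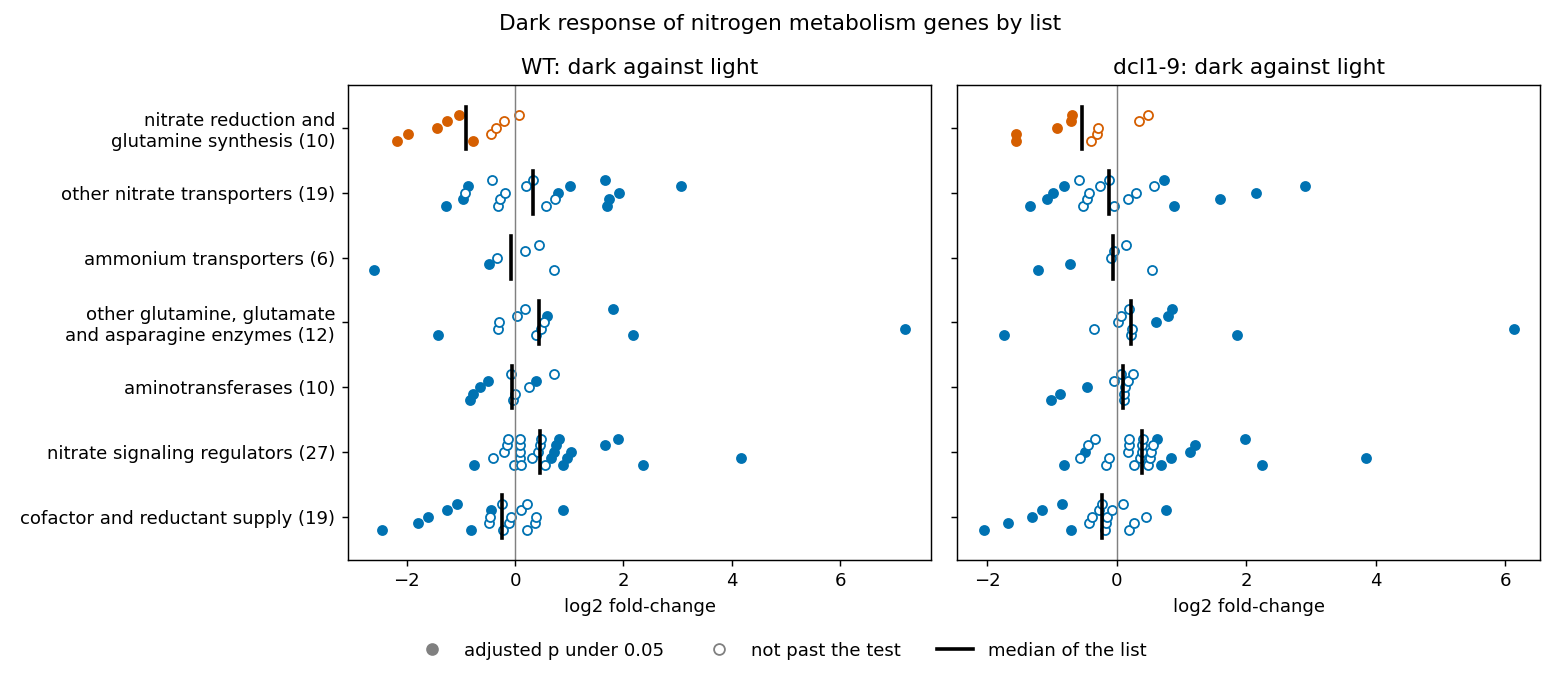
Log2 fold-change of darkness against light (horizontal axes) for the 10 genes of the chain (orange) and the 93 other genes by list (blue, number of genes in parentheses), in WT on the left and in dcl1-9 on the right. Each circle is a gene, filled where the adjusted p was under 0.05, and black bars are list medians (-0.91 and -0.54 for the chain). The circle at the far right, at 7.19 and 6.14, is ASN1.

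The probe sets whose pattern was most like each gene were listed by Pearson correlation of log2 intensity over the 12 arrays, among 18140 probe sets with a mean intensity of 20 or more. The arrays share 4 groups, so a high correlation describes a like order of groups as much as of arrays. NIA2 was followed by AT3G23570 (r = 0.96), AT5G48990 (0.95) and the sulfite reductase gene SIR (0.94). GLU1 was followed by AT1G20515 (0.98), the receptor kinase gene ER (0.98) and ABCC14 (0.97). The pattern of ASN2 was closest to AT2G07772 (0.98), AT1G16350 (0.98) and the lipoxygenase gene LOX2 (0.98), and that of GLN2 to AT1G56500 (0.99), OPR3 (0.99) and BGLU5 (0.99). NIR1 was nearest to CYP83A1 (0.93), NRT2.1 to AT2G37580 (0.98), NRT1.1 to AT3G53830 (0.95) and GLN1;1 to UXS4 (0.98). The lowest first values were those of NIA1, with AT1G23350 (0.95), NIR1, and GLN1;2, with AT1G03230 (0.90).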

How the data were processed

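Total RNA was hybridized to Arabidopsis Gene 1.1 ST arrays. Per the study's methods, the authors used dChip with a Brainarray version 15 custom definition file, normalized arrays to a baseline array by the invariant set method and computed model-based expression indices from perfect-match probes. The deposited values are thus intensities on a linear scale, already normalized, 1 per probe set and array. The genome build of the files was not given in the sources used here. Deposited columns of the authors' own comparisons (fold changes and their bounds) were not used.

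Here values under 1 were set to 1 and log2 was taken (20 of 27827 probe sets held such a value). limma (version 3.58.1, with statmod 1.5.0, in R 4.3.3) was fitted to all 12 arrays with 4 group means (8 residual degrees of freedom) and an empirical Bayes variance with an intensity trend, and 5 contrasts were tested two-sided. Benjamini-Hochberg adjustment ran over all probe sets, with a threshold of 0.05. Fold changes are ratios of geometric means. In simulated data for the WT dark comparison over 27827 genes, 100 genes were given a log2 change of 1 and 100 a change of 2. These genes had a mean intensity of 20 or more, and the noise was independent between arrays. Calls were made for 56% and 95% of them, with 6 false calls. In the real comparison 7612 probe sets were called, far more than were changed in the simulation. The simulated shares therefore check the fit and do not measure the power or the error of the real comparison. The number of arrays limits the precision. Figures were drawn with matplotlib 3.10.9.

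Samples were grouped by their titles. All 10 genes matched a locus in RefSeq, had a mean of 20 or more and passed every filter. From each other list up to 4 genes per comparison could be named, those with the largest change past the test whose groups did not overlap. The members, lists and tests were chosen with earlier results of these data known. Replicate numbers recur in all groups. Between dcl1-9 light and dcl1-9 dark, same-numbered arrays deviated together (r = 0.24, 0.30 and 0.30 over all probe sets). Over all 18 same-numbered pairs of arrays r ran from 0.03 to 0.34. The main tests did not use the replicate number, and a fit with it as a block was run as an alternative. That block changed no call among the 10 genes between dcl1-9 light and dcl1-9 dark. Alternatives covered the log offset, the normalization, a filter on low means, the variance model, the arrays in the fit, the replicate block, leaving out each array, and a criterion after the methods (a lower bound above 1.2 for the fold change, at 90% confidence), recomputed here from the deposited group means and standard errors of the authors, which are weighted intensities. A planned comparison of promoter and protein sequences was not run.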

Additional observations from a re-analysis of the deposited data

How the results depend on the processing

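For the log2 fold-changes of the 10 genes, 896 values under the alternatives kept their direction and their side of the threshold, 17 lost a call, 8 gained a call and 19 changed sign, none of them called. No call changed direction. Quantile normalization turned the genotype difference of NRT2.1 in light to -0.0435 and those of NIA1 and NIR1 in darkness to -0.031 and -0.0409. Leaving out single arrays changed the sign of differences that were not called. They ran from -0.18 to 0.24 for NIA1 in WT darkness against light, -0.0262 to 0.51 for NIA2, -0.28 to 0.22 for GLN1;2 and -0.19 to 0.20 for NRT2.1 between genotypes in light, -0.0921 to 0.25 for NIA1 and -0.19 to 0.27 for NIR1 between genotypes in darkness, and -0.20 to 0.33 for GLN1;1 in the difference of the dark responses. The cause was not tested. Counts of called genes under leave-one-out were 5 to 6 and 4 to 5 for darkness in WT and dcl1-9, 1 to 2 and 1 to 5 between genotypes in light and in darkness, and 0 for the difference of the responses. For the 93 other genes they were 37 to 44, 29 to 38, 8 to 17, 7 to 15 and 0 to 1.

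With the replicate number as a block, 2 of the 10 genes and 25 of the 93 were called between genotypes in light (1 and 15 without the block), and the counts over all probe sets became 5066 (2573 without) in light, 4338 (2077) in darkness and 77 (29) for the difference of the responses. The block added GLN1;1 in light (adjusted p = 0.026 from limma) and GLN1;1 (0.010) and GLN1;2 (0.039) in darkness. For NIA2 the difference of the responses was still not called with the block (adjusted p = 0.12 from limma). The 12 arrays each correlated best with their own number, with r from 0.03 to 0.34 over 18 pairs of arrays and 14 of them over 0.1, a hint from the data and not from the design. Median centring and a fit of only the groups compared also added GLN1;1 in darkness (adjusted p = 0.038 and 0.023). For the difference of the responses 66 probe sets were called with an offset of 16 in the log, and 15 without the intensity trend. The methods' threshold of 1.2 on a lower bound of the fold change, with the bound recomputed here from the authors' group means and standard errors, gave 3432 and 3290 probe sets between genotypes in light and in darkness. Fitting only the groups compared gave 1368 in light. Of the 10 genes, low intensity limits NRT2.1 and ASN2, whose dark group means were as low as 19.1 and 30.4.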

Other observations

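Within groups, when each array's log2 intensity was taken as its deviation from its group mean, some genes of the chain deviated together over the 12 arrays. The highest Pearson correlations among all pairs of the 10 genes were picked. They were 0.80 for NIA2 and NRT2.1, 0.76 for NIA2 and GLN1;1, 0.76 for NIR1 and GLN2, and 0.71 for NIR1 and ASN2. NIA1 deviated against NIA2, with the lowest correlation of any pair, -0.57. The points share arrays, their normalization and any effect of the replicate number, and no test was made. Matched by replicate number, the log2 response of NIA2 to darkness was -2.23, -1.60 and -2.09 in WT and -0.82, 0.43 and -0.47 in dcl1-9. The molybdopterin synthesis gene at AT2G43760 was the only cofactor or reductant gene of its list to rise in darkness, by 0.88 in WT and 0.76 in dcl1-9. It was chosen after its values were seen.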
